A study of Rattus norvegicus with 9 samples.

Results

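Methionine salvage, S-adenosylmethionine synthesis and polyamine synthesis form a connected set of enzyme steps, and 10 of their genes were followed here in rat brain cortex across simulated altitude: Enoph1, Mtap, Adi1, Apip, Mat2a, Mat2b, Amd1, Odc1, Srm and Sms. Members were the probes of the deposited non-normalized array table whose platform gene symbol is one of these names. This gave 9 genes with 1 probe each among 22523 probes, of which 13353 carry 1 gene symbol, and Mat2b was not analysed here. Enoph1 was picked because its level differed between 7 km and sea level in these arrays, so its values in that contrast, and those of the other members, are given as a description with no p-value, and counts of calls there support nothing. Of the 9 genes with a probe, 6 passed the detection filter and were tested, and 3 (Mtap, Apip and Mat2a) did not.

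The study measured total RNA from brain cortex on 1-colour Illumina rat arrays. There were 3 arrays of rats at sea level with normal oxygen, 3 of rats made hypoxic at a simulated 3 km and 3 of rats made hypoxic at a simulated 7 km. All arrays hold cortex tissue of otherwise untreated rats as far as the labels say, and the sources used here give no strain, age or sex and no length of exposure. Whether replicates come from separate animals is not said in any label, and p-values then measure only the spread between these samples, which may be technical.

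The amino acid methionine is activated by methionine adenosyltransferase to S-adenosylmethionine, the methyl donor of the cell. Decarboxylated S-adenosylmethionine gives its aminopropyl group to putrescine and then to spermidine, which yields spermidine and spermine, and each transfer leaves methylthioadenosine behind. The salvage pathway turns that by-product back into methionine in the order Mtap, Mri1, Apip, Enoph1, Adi1 and a final transamination. In brain, polyamines are known as modulators of glutamate receptors and inward rectifier potassium channels, and ornithine decarboxylase is known as an enzyme that brain tissue induces quickly under stress.

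Promoter sequences are shown for 3 of the enzymes because they set the gene that the results turn on beside others of the pathway. These are Enoph1, Adi1, which catalyses the next salvage step, and Srm, the other member whose promoter holds the same CACGTG motif. Each sequence is the 250 bases before the gene's annotated start in RefSeq, build GRCr8, 5′ to 3′ on the gene's own strand. Capitals mark ACGTG or GCGTG on either strand, the core letters that hypoxia-inducible factors are known to bind, and a CACGTG, the E-box letters that MYC and related factors are known to bind, reads as ACGTG on both strands. All 10 members, Mat2b included, matched a promoter by symbol.
Enoph1, chr14:9861460-9861709, minus strand: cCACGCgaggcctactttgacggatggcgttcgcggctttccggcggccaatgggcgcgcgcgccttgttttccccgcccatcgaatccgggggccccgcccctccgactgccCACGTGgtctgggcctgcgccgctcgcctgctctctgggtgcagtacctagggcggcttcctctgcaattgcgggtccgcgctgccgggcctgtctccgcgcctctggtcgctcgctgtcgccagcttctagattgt
Adi1, chr6:51035017-51035266, plus strand: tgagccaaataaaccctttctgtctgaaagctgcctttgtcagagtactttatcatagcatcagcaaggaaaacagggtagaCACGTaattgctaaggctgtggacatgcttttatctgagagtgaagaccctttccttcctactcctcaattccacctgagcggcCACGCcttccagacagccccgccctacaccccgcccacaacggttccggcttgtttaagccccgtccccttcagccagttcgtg
Srm, chr5:164308752-164309001, plus strand: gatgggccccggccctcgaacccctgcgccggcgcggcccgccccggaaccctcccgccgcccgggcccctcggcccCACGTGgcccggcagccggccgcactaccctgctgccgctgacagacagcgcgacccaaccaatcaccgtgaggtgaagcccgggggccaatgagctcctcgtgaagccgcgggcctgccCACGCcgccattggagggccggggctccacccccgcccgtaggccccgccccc
CACGTG occurred in 2 of the 10 member promoters, Enoph1 and Srm, and in 5.6% of 33469 rat promoters of the same length. ACGTG was present in 16.6% of all promoters on either strand and GCGTG in 25.9%, and 36.7% held at least 1 of them. The Enoph1 window held 1 CACGTG and 1 GCGTG, and the Adi1 window 1 ACGTG and 1 GCGTG with no CACGTG. The Mtap and Mat2a windows held none of these motifs. Enoph1's window also held 31 CG pairs, against a median of 5 over all promoters. The other member windows held 9 (Adi1) to 41 (Odc1), with 30 in Srm, 29 in Mat2a and 28 in Sms. These are matches of letters only.

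The cortex label was checked against markers of excitatory cortical neurons, and Slc17a7, the vesicular glutamate transporter of cortical neurons, and Nrgn, a postsynaptic calmodulin-binding protein, were detected on 9 of 9 arrays. The other 4 markers of that list with a probe were mostly not detected, with Neurod6 above background on 4 arrays, Camk2a on 3, and Neurod2 and Rorb on 1 each. Sea level replicate 3 stood apart from the rest. Its median signal was 203.9 with 8170 probes detected, against medians of 121.2 to 158.6 and 5881 to 6621 detected probes on the other arrays. Its Spearman correlation over all probes with the others was 0.642 to 0.66, against 0.969 to 0.978 among the other 8. Results are therefore given with all 9 arrays and with the 8 arrays that remain without it. The background estimated from the detection p-values had a standard deviation of 15 on that array and 382 to 570 on the other 8, which compresses log2 differences on those 8, most for dim probes. Array signals and the authors' own values are given beside the normalized ones for that reason.

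**Figure D1:**
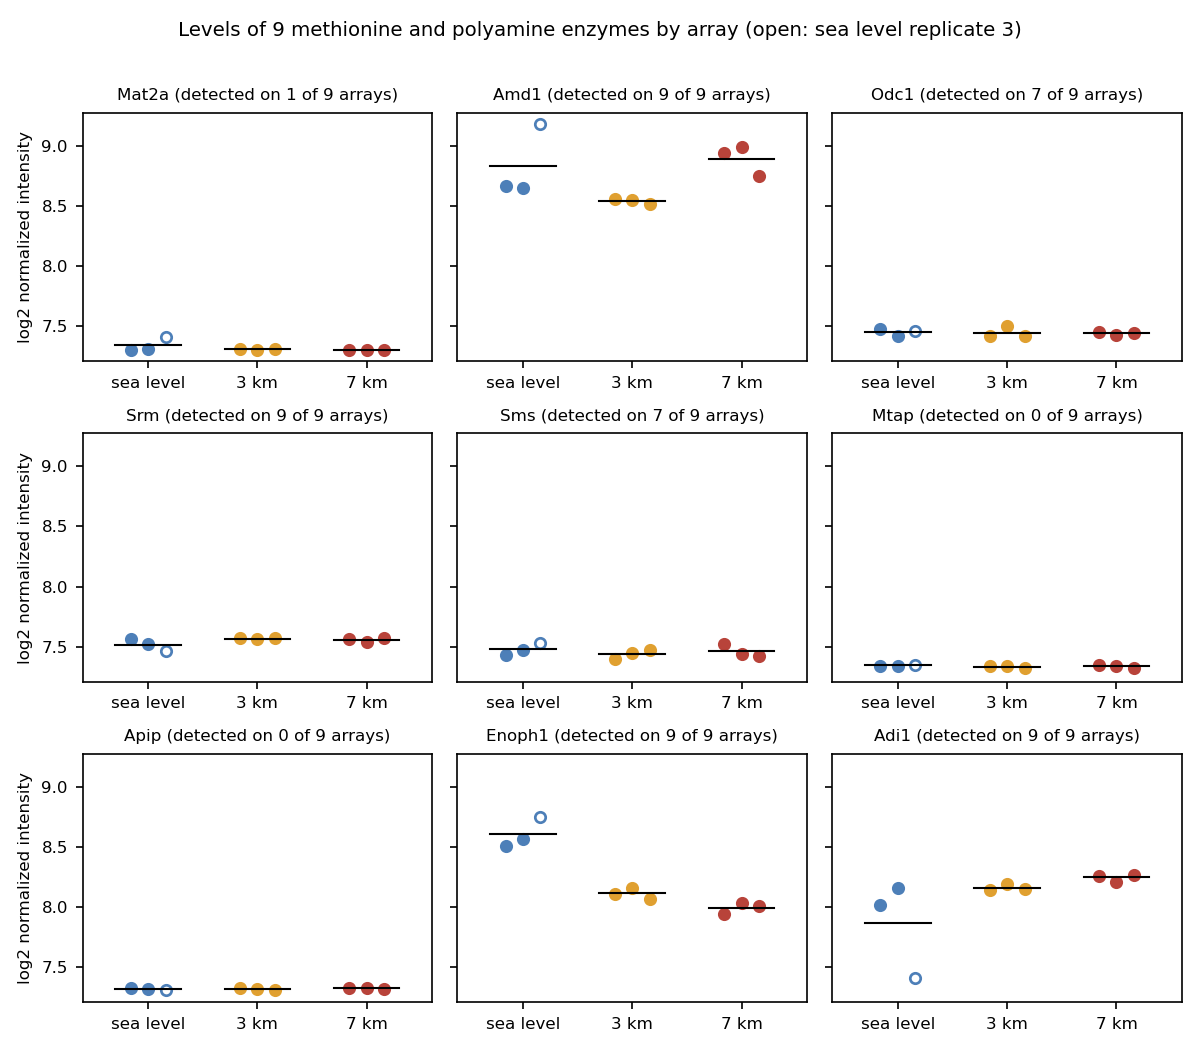
Normalized log2 intensity (vertical axis, 1 scale for all panels) of the 9 enzymes with a probe at sea level, 3 km and 7 km. Each point is 1 array, open for sea level replicate 3, and lines are group means; Enoph1 lies between 8.51 and 8.75 at sea level and between 7.94 and 8.03 at 7 km, while the 3 genes that were not tested, Mat2a, Mtap and Apip, stay near the floor. Levels are read within a panel, since probes of different genes have no common scale.

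Enoph1, the enolase-phosphatase that carries out the dephosphorylating step of methionine salvage, was lower at both simulated altitudes than at sea level on every normalized scale used. Its normalized log2 intensity was 8.51, 8.57 and 8.75 on the sea level arrays, 8.11, 8.16 and 8.07 on the 3 km arrays and 7.94, 8.03 and 8.01 on the 7 km arrays. The 3 groups did not overlap, and the order from low to high was 7 km, 3 km, sea level. The same probe (ILMN_1357680) read 921, 962.6 and 944.2 intensity units at sea level in the authors' deposited value table, 631.5, 690.9 and 598.2 at 3 km, and 494.5, 559.7 and 556.8 at 7 km. Sea level replicate 3 fell inside its group there, between the other sea level arrays. On the authors' scale the group values were 943 ± 20.8 at sea level, 640 ± 47 at 3 km and 537 ± 36.8 at 7 km (SD, n = 3 each). The 7 km mean was 0.57 of the sea level mean, a difference of -43%, and the 3 km mean was 0.679 of it, a difference of -32.1%.

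Before any normalization the separation was incomplete. The deposited signals were 1028, 899.3 and 745 at sea level, 907.8, 1053 and 739.6 at 3 km, and 663.8, 655.6 and 688.5 at 7 km. The 7 km signals lay below all others, while the 3 km and sea level signals overlapped. The mean signal was 900.1 at 3 km and 890.8 at sea level, so Enoph1 was not lower at 3 km before normalization. The 3 km signals of 907.8 and 1053 came from the arrays with the highest median signals of the 8 arrays that resemble each other, 158.6 and 157.2.

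**Figure D2:**
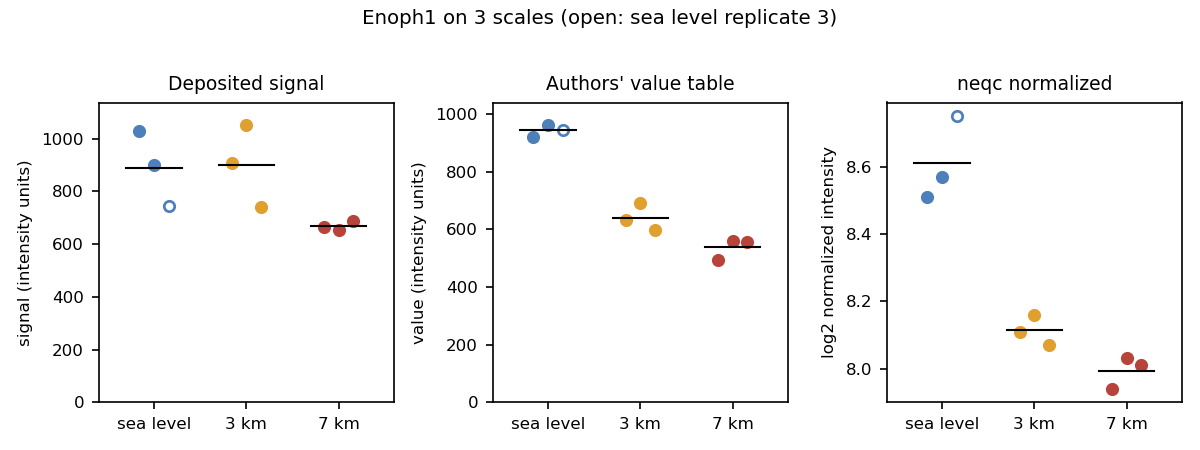
Enoph1 on each array as the deposited signal, the authors' value (both in intensity units, axes from 0) and the normalized log2 intensity (axis not from 0). Points are arrays, open for sea level replicate 3, and lines are group means; 3 km and sea level overlap in the signals, and the 3 groups are apart on the other scales.

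In the fit over all tested probes the Enoph1 difference for 7 km against sea level was -0.62 ± 0.064 on the log2 scale (SE, 3 arrays per group), and -0.50 ± 0.036 with 8 arrays. With 9 arrays, 87 of 6656 tested probes had a lower difference than Enoph1, and 61 of 6499 with 8 arrays. Enoph1 was the 1 member of 6 called at an adjusted p of 0.05 in this contrast, where 0.120% of all tested probes were called (0.308% with 8 arrays), and nothing is read from that count because the contrast chose the gene. Fewer cells of a type and less RNA per cell cannot be told apart in such tissue samples.

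The contrast of 3 km with sea level shares the sea level arrays with the one that chose the gene, and that choice favours a negative difference. Its Enoph1 difference was -0.50 ± 0.064 (95% interval -0.65 to -0.35), with an adjusted p of 0.0782 by limma. With 8 arrays it was -0.40 ± 0.036 with an adjusted p of 0.053, so it did not pass either way. The arrays of the groups did not overlap. Groups were apart in the lower direction for 10.7% of all probes (15.6% with 8 arrays). The contrast of 7 km with 3 km shares the 7 km arrays with the choosing contrast. Its Enoph1 difference was -0.12 ± 0.064 (95% interval -0.27 to 0.03) with an adjusted p of 1. With 8 arrays it was -0.11 ± 0.032 (95% interval -0.18 to -0.03) with an adjusted p of 0.478. The arrays of these groups did not overlap either, as for 7.71% of all probes. The difference between the neighbouring levels of 7 km and 3 km passed in neither fit.

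Enoph1 kept its sign in all 22 alternative settings of each contrast, which used normalized signals or the authors' values. For 7 km against sea level that sign supports nothing, since the contrast chose the gene. The signals before normalization, where the 3 km mean was not below sea level, were not among the settings. For 3 km against sea level Enoph1 was called in 1 of the 22, with array weights (adjusted p = 0.00371, limma). That setting called 120 probes in this contrast, against 0 in the main fit. Adjusted p-values of Enoph1 over the alternatives ran up to 0.445. Bringing all arrays to the same median, with no quantile normalization, gave -1.62 for 7 km against sea level and -1.36 for 3 km against sea level. That scaling moved the median of all tested probes by -0.64 and -0.55, and relative to it Enoph1 stood at -0.98 and -0.81.

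Adi1, the acireductone dioxygenase that acts directly after Enoph1, had higher values at 7 km than at sea level, with 1 sea level array deciding how much. Its normalized log2 intensity was 8.02, 8.16 and 7.41 at sea level, 8.14, 8.19 and 8.15 at 3 km, and 8.26, 8.21 and 8.27 at 7 km. The value of 7.41 belongs to sea level replicate 3, whose signal was 226 against 655.5 to 685.6 on the other sea level arrays. The authors' values were 562.2, 656.2 and 56.91 at sea level, 647.6, 709.5 and 644.8 at 3 km, and 753.3, 694.1 and 748.6 at 7 km. All 7 km arrays were above all sea level arrays, with or without that replicate. The ratio of the authors' means, 7 km over sea level, was 1.72 with 9 arrays and 1.2 with 8.

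The fitted Adi1 difference for 7 km against sea level was 0.38 ± 0.17 with 9 arrays and 0.14 ± 0.037 with 8. Equal-median scaling took it to 0.02, or 0.66 relative to the median of all probes. For 3 km against sea level the fitted difference was 0.29 ± 0.17 with an adjusted p of 0.533, and 0.06 ± 0.037 with an adjusted p of 0.689 with 8 arrays. These groups, which are neighbours in the order sea level, 3 km, 7 km, overlapped. Between 7 km and 3 km the difference was 0.09 ± 0.17 (adjusted p = 1, limma), and 0.08 ± 0.034 (adjusted p = 0.603, limma) with 8 arrays. The normalized values of these groups were apart, while the authors' values overlapped, with 694.1 on 7 km replicate 2 and 709.5 on 3 km replicate 2. Equal-median scaling turned the difference between 7 km and 3 km to -0.12, or -0.06 relative to the median of all probes. Adi1 and Enoph1, neighbouring steps of salvage, thus had differences of opposite sign against sea level at both altitudes, and their Pearson correlation was -0.78 over the 9 arrays and -0.71 over 8, as a description of arrays that share 1 normalization.

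Of the salvage steps before Enoph1, the members Mtap and Apip could not be followed. Mtap, the phosphorylase that opens salvage by splitting methylthioadenosine, was detected on 0 of 9 arrays, with signals of 120.7 to 210.5 and detection p-values of 0.0982 to 0.292. Apip, the dehydratase just before Enoph1, was also detected on 0 of 9 arrays, with signals of 114.4 to 194.9 and detection p-values of 0.185 to 0.452. No difference between groups can be read from these probes, and not being detected by 1 probe does not show that the transcript is absent. Mri1, the isomerase between them, is no member and was looked up after its values had been seen. Its normalized values were 7.45, 7.45 and 7.44 at 7 km against 7.51, 7.49 and 7.49 at sea level, a difference of -0.05 ± 0.024 (adjusted p = 0.414, limma). The normalized values of these groups did not overlap. The authors' values overlapped with 9 arrays, through sea level replicate 3, and were apart with 8.

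Mat2a, the catalytic subunit of the methionine adenosyltransferase of most tissues outside liver, was above background only on sea level replicate 3, where its signal was 227. On the other 8 arrays its signals were 102.6 to 130.5, within background. The single detection therefore rests on the array that stands apart, and no fold is given.

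Amd1, the decarboxylase that commits S-adenosylmethionine to polyamine synthesis, had the largest fitted difference between 7 km and 3 km among the 6 tested members, a difference that was lost with another scaling. Its normalized log2 intensity was 8.67, 8.65 and 9.18 at sea level, 8.56, 8.55 and 8.52 at 3 km, and 8.94, 8.99 and 8.75 at 7 km. The order of the means from low to high was 3 km, sea level, 7 km, and the arrays at 7 km and sea level overlapped through sea level replicate 3 alone. For 7 km against 3 km the difference was 0.35 ± 0.14 (95% interval 0.02 to 0.68), with an adjusted p of 1 by limma. With 8 arrays it was 0.36 ± 0.063 (95% interval 0.20 to 0.51) with an adjusted p of 0.3, so it did not pass, although only 85 of 6656 tested probes had a higher difference with 9 arrays. Equal-median scaling took it to -0.03, or 0.03 relative to the median of all probes, so neither its size nor its direction is settled. The authors' values were 1261, 1289 and 1105 at 7 km against 995.3, 1002 and 922.6 at 3 km, a ratio of means of 1.25.

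Against sea level the Amd1 values depended on that same replicate. The difference for 7 km against sea level was 0.06 ± 0.14 with 9 arrays and 0.24 ± 0.071 with 8, where the groups no longer overlapped. For 3 km against sea level it was -0.29 ± 0.14 (adjusted p = 0.533, limma) with 9 arrays and -0.11 ± 0.071 (adjusted p = 0.673) with 8. With equal-median scaling the 7 km against sea level difference of Amd1 turned to -1.13, or -0.49 relative to the median of all probes, so its direction there is not settled.

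The 3 remaining polyamine enzymes were dim and nearly flat across altitude on the normalized scale. Odc1, which makes putrescine from ornithine, had normalized values of 7.48, 7.42 and 7.46 at sea level, 7.42, 7.50 and 7.42 at 3 km, and 7.45, 7.43 and 7.44 at 7 km. Srm, the synthase that makes spermidine from putrescine, had 7.56, 7.52 and 7.46 at sea level, 7.57, 7.56 and 7.57 at 3 km, and 7.56, 7.54 and 7.57 at 7 km. Sms, which makes spermine from spermidine, had 7.43, 7.47 and 7.53 at sea level, 7.40, 7.45 and 7.47 at 3 km, and 7.52, 7.44 and 7.42 at 7 km. For each gene the normalized groups overlapped, and the order of their means has no neighbours that differ beyond the spread. Odc1 and Sms were each detected on 7 of 9 arrays, and Srm on 9 of 9.

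For 3 km against sea level the difference was -0.01 ± 0.032 (adjusted p = 0.897) for Odc1, 0.05 ± 0.032 (adjusted p = 0.533) for Srm and -0.04 ± 0.041 (adjusted p = 0.619) for Sms, all by limma. The 95% interval was -0.08 to 0.07 for Odc1, -0.02 to 0.13 for Srm and -0.13 to 0.06 for Sms. These intervals lie on the compressed scale, where the lowest normalized value of any probe was 7.26, and so they do not bound the change in transcript. On the authors' scale Odc1 averaged 93.2 ± 27.3 at sea level, 97.7 ± 39 at 3 km and 92.5 ± 12.7 at 7 km (SD, n = 3 each), and Sms averaged 108 ± 20.6, 92.4 ± 35.6 and 108 ± 50.8 in the same order. Srm averaged 143 ± 55.8 at sea level, 199.5 ± 4.87 at 3 km and 189 ± 14.2 at 7 km. Its 3 km values of 195.2 to 204.8 all lay above the sea level values of 81.72 to 190.9, with or without sea level replicate 3, whose value was 81.72, while 7 km overlapped sea level. The ratio of the Srm means, 3 km over sea level, was 1.4 with 9 arrays and 1.15 with 8. Between 7 km and 3 km the normalized differences of the 3 genes were 0, -0.01 and 0.02, each with an adjusted p of 1.

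**Figure D3:**
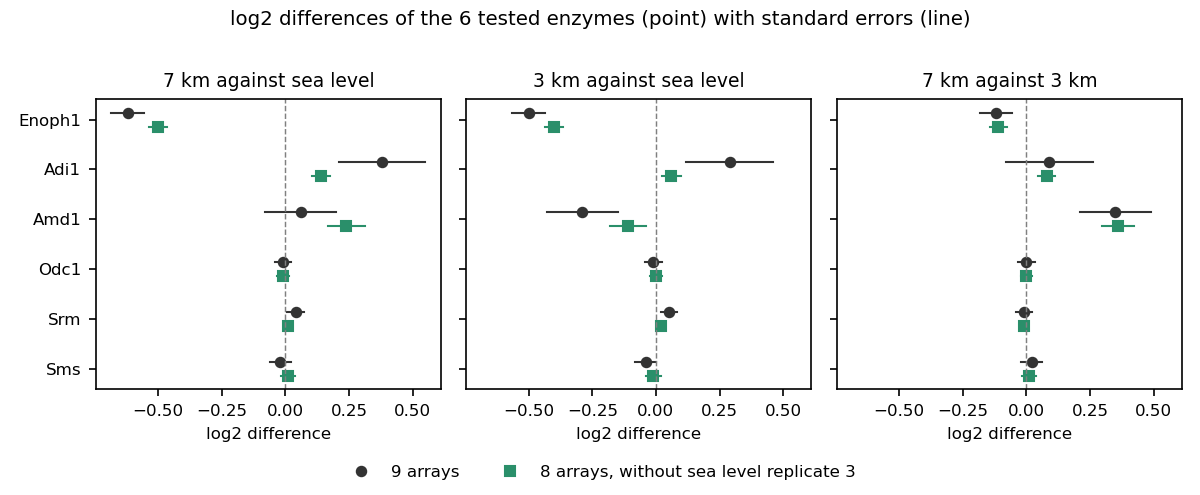
log2 differences (horizontal axis) of the 6 tested enzymes in the 3 contrasts, as points with standard errors from the fit as lines, with 9 arrays (circles) and with the 8 arrays left without sea level replicate 3 (squares). Enoph1 lies at -0.62 and -0.50 for 7 km against sea level, Adi1 moves from 0.38 to 0.14 when the replicate is left out, and Odc1, Srm and Sms stay within 0.05 of 0.

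Over the 6 tested members, 0 passed for 3 km against sea level and 0 for 7 km against 3 km, where 0% of all 6656 probes passed as well. At an unadjusted p under 0.05 there was 1 member in each of these contrasts, Enoph1 and Amd1 in that order, against 8.07% and 2.70% of all probes. Members were lower in 4 and higher in 2 for 3 km against sea level, with a median of -0.02 against 0 for all probes. At 7 km against sea level 3 were lower and 3 higher, with a median of 0.02 against -0.01 for all probes. The sign of the dim members depended on the scaling: with equal medians 5 of the 6 were below 0 in both contrasts with sea level, and 2, Enoph1 and Amd1, were below the median of all probes. The 6 that passed the detection filter are not the whole set, and the enzymes did not share a direction.

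Groups that do not overlap are common on these arrays, and they are counted here on the normalized scale. For 7 km against sea level 1 member was apart in the lower direction and 1 in the higher, against 12.5% and 12.2% of all probes, and with 8 arrays 1 and 2, against 16.1% and 16.3%. For 3 km against sea level Enoph1 and Amd1 were apart in the lower direction and 0 in the higher, against 10.7% and 8.80% of all probes, and the same counts stood against 15.6% and 15.0% with 8 arrays. Between 7 km and 3 km Enoph1 was apart in the lower direction and Adi1 and Amd1 in the higher, against 7.71% and 5.93% (7.68% and 5.95% with 8 arrays).

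The wider pathway was followed through 47 genes in 8 lists, from the methionine cycle to polyamine transport. A probe existed for 38 of them and 24 were tested. None passed in any of the 3 contrasts by limma, with 9 or 8 arrays. At an unadjusted p under 0.05 there were 6 for 7 km against sea level, 5 for 3 km against sea level and 1 for 7 km against 3 km, against 11.4%, 8.07% and 2.70% of all tested probes. At 7 km against sea level 11 had a difference above 0, 11 below and 2, Ahcy and Arg1, at 0 when rounded to 2 decimals, with a median of 0 against -0.01 for all probes. With equal-median scaling 20 of the 24 were below 0, and 13 were below the median of all probes.

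Polyamine breakdown, with 3 of 4 genes tested, held the highest list median for 7 km against sea level, 0.47, with 2 genes above 0 and 1 below, and 0 of its genes passed. Smox, the oxidase that turns spermine back into spermidine, had normalized values of 8.30, 8.25 and 8.07 at sea level, 8.91, 9.28 and 8.81 at 3 km, and 8.62, 8.82 and 9.17 at 7 km. Every array at altitude was above every sea level array. The difference was 0.66 ± 0.17 for 7 km against sea level (adjusted p = 0.281) and 0.79 ± 0.17 for 3 km against sea level (adjusted p = 0.261), and 0.59 ± 0.20 and 0.72 ± 0.20 with 8 arrays (adjusted p = 0.318 and 0.334). The authors' means were 1200 ± 201 at 7 km against 665 ± 153 at sea level (SD, n = 3 each), a ratio of 1.8. With equal-median scaling the values were -0.44 at 7 km and 0.04 at 3 km against sea level, which is 0.20 and 0.59 above the shift of all probes.

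Sat1, the acetyltransferase that marks spermidine and spermine for export or oxidation, had normalized values of 8.14, 8.07 and 8.46 at sea level, 8.70, 8.65 and 8.86 at 3 km, and 8.85, 8.81 and 8.41 at 7 km. The 3 km arrays were all above sea level, while 7 km overlapped it through 1 array of each group. The differences were 0.47 ± 0.14 for 7 km (adjusted p = 0.373) and 0.51 ± 0.14 for 3 km (adjusted p = 0.418), and with 8 arrays 0.56 ± 0.14 and 0.60 ± 0.14 (adjusted p = 0.21 and 0.262), when both altitudes were apart from sea level. Equal-median scaling gave -0.74 at 7 km and -0.33 at 3 km, or -0.10 and 0.22 relative to all probes, so the direction for 7 km depends on the scaling. The authors' means of Sat1 had a ratio of 1.61, 7 km over sea level. Sat2, a related acetyltransferase, was detected on 3 of 9 arrays, all of them at sea level or 3 km. It passed the filter only through those arrays and failed it with 8 arrays. Its difference was in the other direction, -0.07 ± 0.036 for 7 km against sea level (adjusted p = 0.414). The normalized Sat2 values were 7.36, 7.41 and 7.37 at 7 km, within background, against 7.42, 7.41 and 7.51 at sea level, apart before rounding. Its authors' means were 28.4 ± 23.5 at 7 km against 82.2 ± 27.3 at sea level (SD, n = 3 each), and no fold is read from them.

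Among the regulators of ornithine decarboxylase, 0 of 3 tested genes passed. Azin1, the antizyme inhibitor that protects ornithine decarboxylase from breakdown, had 8.00, 7.88 and 8.08 at sea level, 7.66, 7.76 and 7.72 at 3 km, and 7.76, 7.74 and 7.70 at 7 km. Both altitudes lay below sea level with no overlap. The differences were -0.25 ± 0.054 for 7 km (adjusted p = 0.206) and -0.27 ± 0.054 for 3 km (adjusted p = 0.216), or -0.17 ± 0.036 and -0.18 ± 0.036 with 8 arrays (adjusted p = 0.169 and 0.177). In the authors' values its 7 km mean was 0.68 of the sea level mean. Oaz2, an antizyme that targets the enzyme for degradation, differed by -0.25 ± 0.14 for 3 km against sea level (adjusted p = 0.533) and by -0.06 ± 0.045 with 8 arrays.

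Among methyltransferases that use S-adenosylmethionine, most of them acting on small molecules and 1, Pcmt1, on proteins, 0 of 5 tested genes passed. Gamt, which makes creatine from guanidinoacetate, had 8.37, 8.20 and 8.18 at sea level, 7.99, 7.99 and 7.87 at 3 km, and 7.88, 8.01 and 7.84 at 7 km, with no overlap between either altitude and sea level. The differences were -0.34 ± 0.069 for 7 km (adjusted p = 0.177) and -0.30 ± 0.069 for 3 km (adjusted p = 0.301), and leaving out sea level replicate 3 gave -0.33 ± 0.064 and -0.30 ± 0.064 (adjusted p = 0.131 and 0.227). Gnmt, which uses surplus S-adenosylmethionine in liver, differed by 0.07 ± 0.043 for 7 km against sea level (adjusted p = 0.43). With 8 arrays it differed by 0.03 ± 0.027. Nnmt, the nicotinamide methyltransferase, was noticed after its values were seen. It stood at the ceiling of the normalized scale, 13.96, on 8 arrays and at 7.44 on sea level replicate 3, so its difference of 2.17 ± 1.6 became 0 without that array.

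In the methionine cycle list 0 of 5 tested genes passed, and in the transsulfuration list 0 of 1. Ahcy, which removes the S-adenosylhomocysteine left by methylation, had 7.96, 8.05 and 7.95 at 3 km against 7.88, 7.83 and 7.91 at sea level. Its difference was 0.11 ± 0.037 there (adjusted p = 0.513), and 0 ± 0.037 for 7 km against sea level. Equal-median scaling turned the 3 km value of Ahcy to -0.66, or -0.11 relative to all probes, and array weights called it (adjusted p = 0.0473, limma), so its direction depends on the scaling. Ahcyl2, a related protein, differed by 0.32 ± 0.12 at 7 km (adjusted p = 0.414), against 0.14 ± 0.05 (adjusted p = 0.344) without sea level replicate 3, where its probe was not detected. Cbs, the first enzyme of transsulfuration, differed by 0.18 ± 0.059 at 7 km (adjusted p = 0.382) and 0.13 ± 0.059 at 3 km (adjusted p = 0.533) against sea level. Equal-median scaling turned these Cbs values to -0.34 and -0.32, or 0.30 and 0.23 relative to all probes. The authors' means of Cbs were 268 ± 81.9 at 3 km and 310 ± 67.9 at 7 km against 144 ± 16.8 at sea level (SD, n = 3 each), ratios of 1.86 and 2.15 with both altitudes apart from sea level.

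In the other lists 0 tested genes passed. Eif5a, the translation factor that carries the spermidine-derived hypusine, differed by -0.38 ± 0.19 for 7 km against sea level (adjusted p = 0.414) and by -0.16 ± 0.11 with 8 arrays. In ornithine supply, Agmat, named for agmatine hydrolysis, differed by 0.10 ± 0.049 for 7 km against sea level (adjusted p = 0.414). Oat, the ornithine aminotransferase, differed by -0.12 ± 0.084 in that contrast (adjusted p = 0.45). With 8 arrays these values were 0.03 ± 0.019 and -0.02 ± 0.035. The amino acid transporters Slc7a1 and Slc7a5 differed by 0.07 ± 0.059 and 0.02 ± 0.041 in the same contrast (adjusted p = 0.511 and 0.794). With 8 arrays they stood at 0 ± 0.015 and -0.01 ± 0.023. The Agmat and Slc7a1 probes were not detected on sea level replicate 3.

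**Figure D4:**
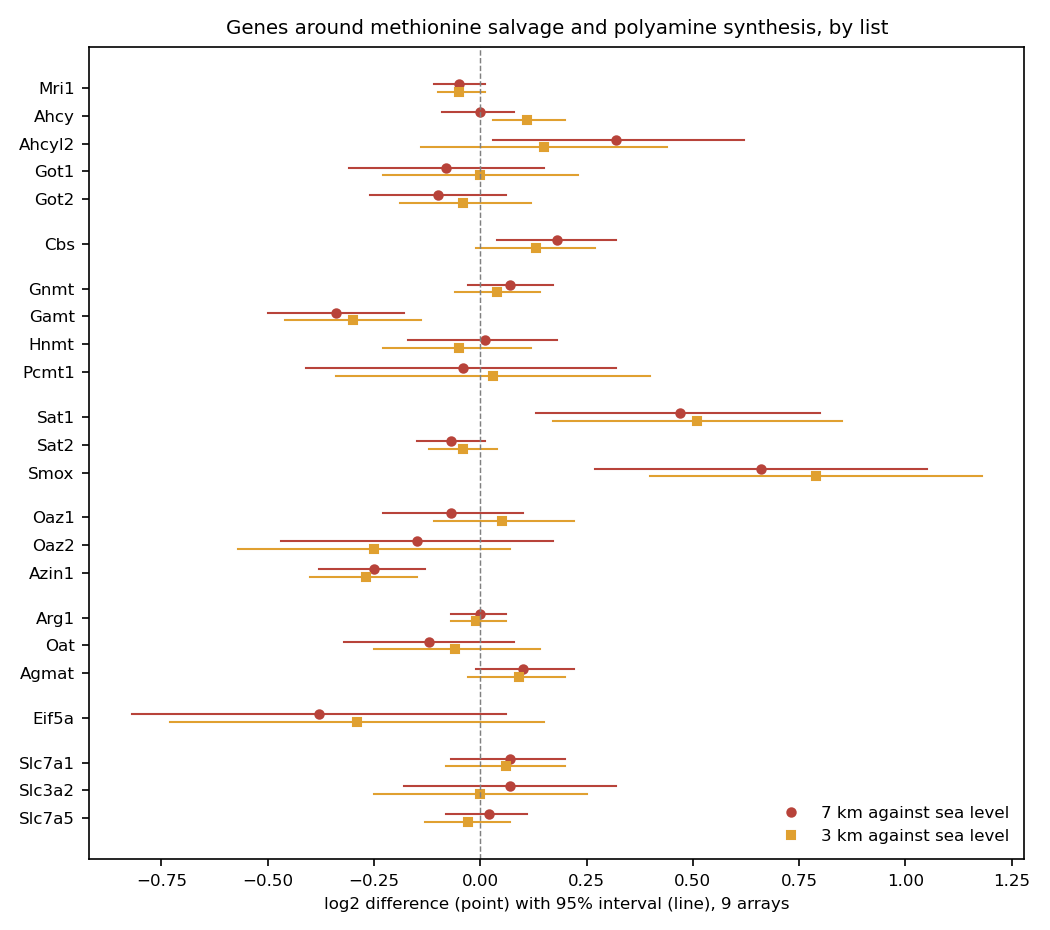
log2 differences against sea level (horizontal axis) of 23 of the 24 tested pathway genes, grouped by list, at 7 km (circles) and 3 km (squares), with 95% intervals from the fit over 9 arrays. Smox at 0.66 and 0.79 and Sat1 at 0.47 and 0.51 lie to the right. Eif5a at -0.38 and -0.29, Gamt and Azin1 lie to the left, and Nnmt is left out because its value rests on 1 array.

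Among 4866 named probes tested with 9 arrays, the 5 most like Enoph1 by Pearson correlation were Sqle (0.99), Omg (0.987), Vcan (0.981), Acat2 (0.977) and Scg3 (0.974). The same 5 genes led over 8 arrays, where Omg came first with 0.989 and Acat2 last of the 5 with 0.965. Values above 0.9 were found for 58 probes with 9 arrays and 54 with 8, and all of them share the arrays and their normalization with Enoph1. Sqle, the squalene epoxidase of cholesterol synthesis, had normalized values of 7.73, 7.78 and 7.82 at sea level, 7.55, 7.55 and 7.57 at 3 km, and 7.51, 7.53 and 7.53 at 7 km. Omg, the oligodendrocyte-myelin glycoprotein, had 10.64, 10.82 and 11.26 at sea level, 10.01, 10.04 and 10.08 at 3 km, and 9.84, 9.95 and 9.91 at 7 km. Both genes had their highest values at sea level and low, close values at the altitudes. This pattern follows from picking them for likeness to Enoph1 and supports nothing further. Vcan is a matrix proteoglycan, Acat2 a cytosolic thiolase and Scg3 a granin of secretory vesicles. Within the pathway, Azin1 correlated with Enoph1 at 0.91 over 9 arrays and 0.84 over 8, Gamt at 0.84 and 0.90, Smox at -0.80 and -0.68 and Sat1 at -0.73 and -0.87.

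Most oligodendrocyte markers had lower values at altitude than at sea level, as Enoph1 did. Of 12 markers 11 had a probe, and their mean normalized level was 9.04 to 9.19 at sea level, 8.83 to 9.01 at 3 km and 8.39 to 8.73 at 7 km. Their summed linear level was 10232 to 11296 at sea level, 7809 to 9972 at 3 km and 4605 to 6887 at 7 km. For 7 km against sea level 9 of the 9 tested markers had a difference below 0, with a median of -0.56, and 0 passed. At 3 km against sea level 7 were below 0 and 2 above, with a median of -0.30. Mobp, a myelin protein gene, stood at 0.70 ± 0.25 there (adjusted p = 0.533) with the 3 km arrays all above sea level, also with 8 arrays (0.52), and Ermn at 0.03 ± 0.077. With equal-median scaling 9 of the 9 were below 0 in both contrasts with sea level, so Mobp and Ermn changed sign at 3 km, and relative to the median of all probes 9 were below at 7 km and 8 at 3 km. With 8 arrays, at 7 km against sea level, 8 were below 0, the median was -0.30 and 1, Omg, passed (-0.88 ± 0.06, adjusted p = 0.0215, limma). Mag, a defining myelin gene, was not detected on any array. The mean level of the list correlated with Enoph1 at 0.85 over 9 arrays and 0.80 over 8.

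Other marker lists followed or opposed Enoph1. The mean of 6 excitatory neuron markers was 8.39 to 8.40 at 7 km against 8.43 to 8.55 at sea level. Its correlation with Enoph1 was 0.87 over 9 arrays and 0.83 over 8. The summed level of the 6 was 8444 to 11406 at 7 km, against 11115 to 13989 at sea level. For the 4 tested markers, the median difference in that contrast relative to all probes depended on the scaling. It was -0.02 with equal medians, -0.16 without background correction and -0.25 with the authors' values. The mean of 7 choroid plexus markers, of which Folr1, Prlr and Clic6 were never detected, was 7.64 to 7.73 at 7 km against 7.85 to 8.66 at sea level, with correlations of 0.82 and 0.93. Its summed level was 1607 to 1894 at 7 km and 2389 to 8758 at sea level, where the mean of 8.66 and the sum of 8758 belong to sea level replicate 3 and the other sea level sums were 2389 and 2819. Ttr was detected only on the 3 sea level arrays and so passed the filter through the group where it was high. Enpp2, detected on all 9 arrays, stood at -1.64 ± 0.4 for 7 km against sea level (adjusted p = 0.281). Kcnj13, also detected on all, ran the other way at 0.20 ± 0.082 in that contrast (adjusted p = 0.414). The mean of 5 endothelial markers ran the other way, 8.49 to 8.81 at 7 km against 8.00 to 8.33 at sea level, with summed levels of 2956 to 4992 against 1965 to 2356 and correlations of -0.84 and -0.72. Flt1, Tek and Cdh5 of that list were never detected, and of its 2 tested genes 1 was below 0 with equal-median scaling and 0 were below the median of all probes. Astrocyte markers correlated at 0.78 and 0.57, interneuron markers at 0.39 and 0.06, microglial markers at -0.11 and -0.60 and red cell markers at 0.30 and -0.39. The part of these cell types in the Enoph1, Azin1 and Smox values was not tested.

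**Figure D5:**
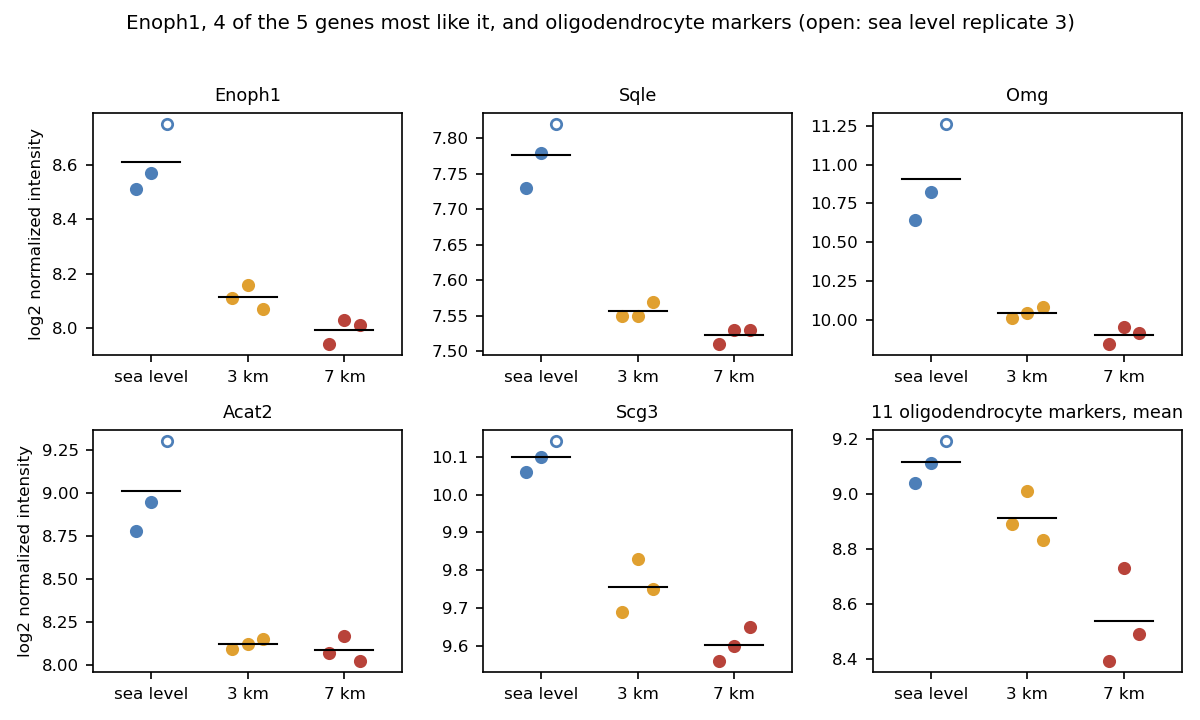
Normalized log2 intensity (vertical axes differ and do not start at 0) of Enoph1, of 4 of the 5 genes most like it and of the mean of 11 oligodendrocyte markers, per array at sea level, 3 km and 7 km, with group means as lines and sea level replicate 3 open. Enoph1, Sqle, Omg, Acat2 and Scg3 have all 3 km and 7 km arrays below all sea level arrays, a pattern that their choice favours. The marker mean spans 8.83 to 9.01 at 3 km and 8.39 to 8.73 at 7 km.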

How the data were processed

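The authors deposited, per the file headers, non-normalized signals (intensity) with their detection p-values, 22523 probes by 9 arrays. A second deposited table holds 21675 probes in linear intensity units; many of its values lie below 0, so a background had been subtracted, by a method not given in the sources used here. RNA was extracted with Trizol and turned into biotin-labelled cRNA, per the labels' protocols; no scanner or software is named there. All signals were positive, the lowest being 56.9, and the detection p-value fell with rising signal on all 9 arrays.

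Signals were corrected and quantile normalized with neqc of limma 3.58.1 in R 4.3.3 (background inferred from the detection p-values, offset 16, log2). The detection filter required p under 0.05 on 3 or more arrays and passed 6656 probes with 9 arrays and 6499 with 8. Group means were fitted to all arrays with limma (eBayes, no trend), and p-values were adjusted by Benjamini-Hochberg over every tested probe at 0.05. Adjusted p-values are limma's throughout, and values after ± are standard errors of that fit unless SD is written. The number of arrays limits the precision. The fit was tested on simulated data.

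The brightest probe stands for a gene. Of 13353 named probes, 13313 matched the current RefSeq table. Every member is named, and from each pathway list up to 2 genes with the smallest p. Likeness to Enoph1 takes the 5 highest Pearson correlations. The members and lists were chosen with earlier results of these data known. Alternatives covered the background correction, scaling, detection filter, offset, authors' values, weights, variance prior, replicate block and each array left out. Plots were drawn with matplotlib 3.10.9.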

Additional observations from a re-analysis of the deposited data

How the results depend on the processing

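Enoph1 had the same sign in all 22 alternatives of each contrast, none of which used signals before normalization. Its differences ran from -1.62 to -0.50 for 7 km against sea level and from -1.36 to -0.39 for 3 km against sea level. For 7 km against 3 km they ran from -0.26 to -0.10. For 7 km against sea level, which chose Enoph1 and whose calls support nothing, the count of called members was 1, and 0 with equal medians, with no detection filter, with the authors' values, with the replicate block (with or without sea level replicate 3), with a variance trend and with only the 6 arrays compared. Leaving out 1 array gave 0 to 1 called members, 1 only without sea level replicate 1 or 3, and fewer samples enter those fits. The 8 called probes of that contrast became 0 with equal medians, 4 with detection on all 9 arrays, 13 with the authors' values (6 higher) and 34 without sea level replicate 3 as well (16 higher). They became 60 without background correction and without that replicate (22 higher), 176 with array weights (58 higher), 3 with the trend and 0 with 6 arrays. Leaving out 1 array gave 0 to 20. For 3 km against sea level 1 member was called with array weights, against 0. Called probes there became 1 with no filter, 3 with the authors' values, 17 for these or for uncorrected signals without sea level replicate 3, 120 with array weights and 3 with the trend, and 0 to 1 with 1 array left out. For 7 km against 3 km they were 1 with the authors' values and 4 without sea level replicate 3 as well, and members called were 0 throughout. Array weights also called Sat1 in both contrasts with sea level (adjusted p = 0.0407 and 0.0365, limma) and, for 3 km against sea level, Smox and Ahcy (adjusted p = 0.0437 and 0.0473, limma). The cause was not tested.

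Whether the replicate numbers pair the samples was not settled. Deviations of same-numbered arrays from their group means correlated at 0.01 to 0.30 over 9 pairs, and at -0.08 to 0.16 over 7 pairs without sea level replicate 3. Other pairs correlated at -0.30 to 0.28, and 4 of 9 arrays correlated best with their own number. Deviations from a mean of 3 or fewer arrays depend on each other, so this check cannot exclude pairing. With the replicate block 0 probes were called for 7 km against sea level, and 3 without sea level replicate 3 (1 higher). Low signal over background limits Odc1, Srm, Sms and the undetected members.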
